A study of Mus musculus with 8 samples.

Results

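The genes of oxidative phosphorylation were followed in the livers of ethanol-fed mice with and without hepatocyte Ripk1. They were taken from the deposited count table by symbol: protein-coding rows that begin with Ndufa, Ndufb, Ndufc, Ndufs or Ndufv (assembly factors of the Ndufaf type left out), Uqcr, Cox4 to Cox8, Atp5 or mt-, together with Sdha to Sdhd, Cyc1 and Cycs. The rule gave 101 of the 55335 rows, 88 encoded in the nucleus and 13 by mitochondrial DNA. Liver RNA came from 4 Ripk1-hepKO mice (28, 34, 37 and 39), in which Ripk1 is deleted in hepatocytes, and 4 Ripk1-Con mice (29, 32, 40 and 41). All 8 were female, independent animals fed ethanol by the NIAAA chronic-plus-binge protocol. Their age, strain, the deleted exons and the driver of the deletion are not given in the labels, and liver cells other than hepatocytes keep the gene. Mice without ethanol were not analysed here.

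Complexes I to IV of the inner mitochondrial membrane pass electrons from NADH and succinate to oxygen, and complex V, the ATP synthase, uses the proton gradient that complexes I, III and IV build. Complex II is encoded wholly in the nucleus, while the other complexes also hold subunits made inside the mitochondrion from its own DNA, so 2 genomes must supply each of them. Hepatocytes are rich in mitochondria, and ethanol oxidation in the liver delivers NADH to this chain.

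Total counts ran from 28038390 to 67328158 per library. One library stood apart: Ripk1-hepKO mouse 28 had a mean Spearman correlation of 0.954 with the other libraries, against 0.974 to 0.980 for the remaining 7. Ripk1 itself did not separate the groups, at 23.1 to 38.1 CPM (counts scaled to a common library total by the TMM method) in Ripk1-hepKO livers and 27.8 to 53.6 CPM in Ripk1-Con livers. A count per gene does not show the loss of single exons, so this neither bears out nor contradicts a label, and every direction given here rests on the labels Ripk1-hepKO and Ripk1-Con. Hepatocyte markers were abundant in every liver, with a summed level over 10 genes of 92188 to 113584 CPM in Ripk1-hepKO and 105293 to 134151 CPM in Ripk1-Con.

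No oxidative phosphorylation gene differed between the genotypes past the test. Of the 101 genes, 95 passed the filter on low counts (82 nuclear, 13 mitochondrial), and 0 of them had an adjusted p under 0.05 by edgeR's quasi-likelihood test, where the share over all 15234 genes tested was 0%. The DESeq2 Wald test also called 0 of them, against 0.236% of all genes, and its lowest adjusted p among them was 0.506. At an unadjusted p under 0.05 edgeR found 0 of the 95, against 6.68% of all genes. Of the 95, 0 were higher and 0 lower at that level, against 3.86% of all genes higher and 2.82% lower in Ripk1-hepKO. The lowest edgeR adjusted p among them was 0.750.

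The genes nevertheless leaned to one side by a small amount. Of the 95, 78 had a log2 fold change (Ripk1-hepKO over Ripk1-Con) below 0 and 17 above it, where 48.2% of all genes tested lay below 0. Their median was -0.08, against 0.01 for all genes tested. With library size alone as the scale, 68 of the 95 lay below 0, against 42.2% of all genes, with medians of -0.04 and 0.04. Without control mouse 29 the count was 67 and the median -0.05, and with any other mouse left out the count ran from 70 to 87. Abundant genes as a whole lay on the same side: of the 1775 genes at or above the median level of these 95, 1083 were below 0, and their median was -0.05. The fold changes ran from -0.48 for Cox7a1 to 0.17 for mt-Co1. In a bulk liver sample, less RNA per cell and fewer cells of one type cannot be told apart.

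These genes were also measured more tightly than most. The median standard error of their log2 fold changes was 0.101, against 0.214 for all genes tested and 0.144 for the 1775 abundant genes. The median SD within groups was 0.109, against 0.306 for all genes and 0.206 for the abundant ones. For 90 of the 95 genes the 95% confidence interval lay within 1.5-fold of no difference in both directions, which held for 41.4% of all genes and for 1183 of the 1775 abundant genes. The 5 with wider intervals were Ndufa4l2, Cox6b2, Cox7a1, Atp5k and Atp5s. Of these, the first 3 averaged under 1 CPM, and Atp5s averaged 3.13 CPM.

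**Figure D1:**
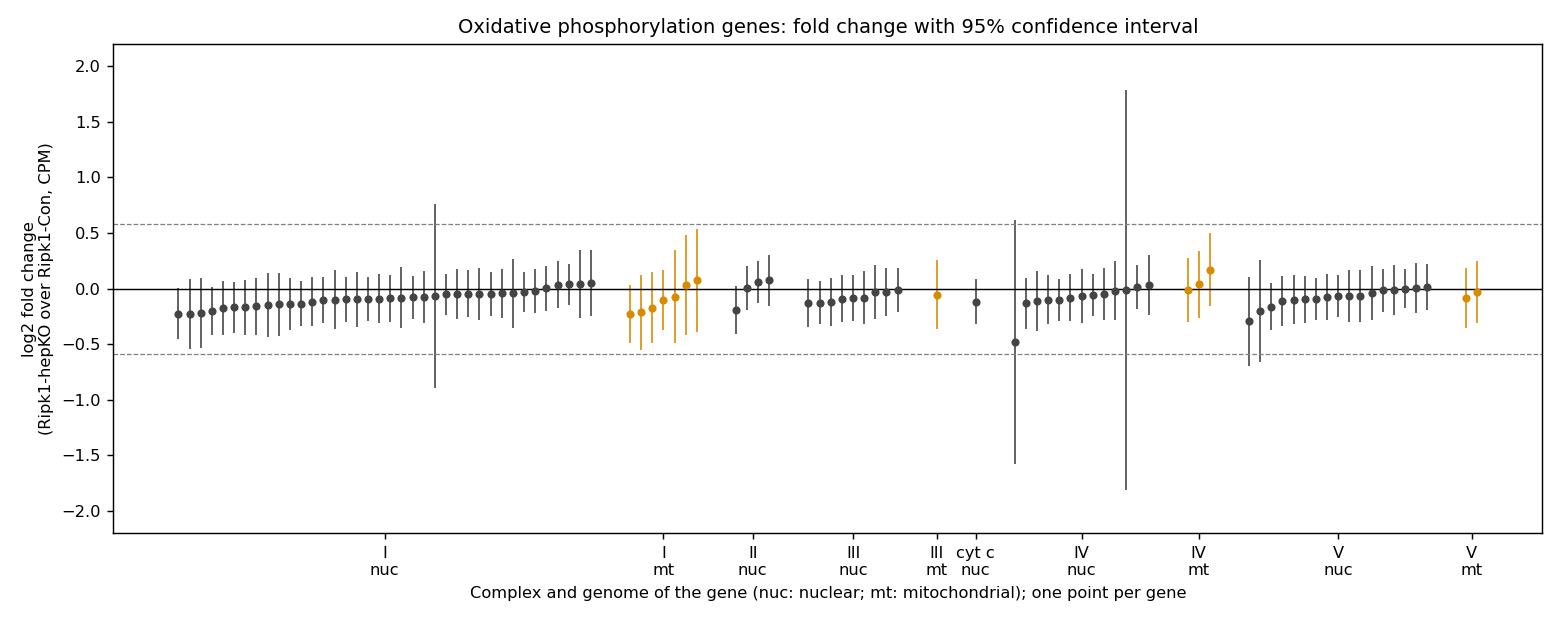
Log2 fold change (Ripk1-hepKO over Ripk1-Con, y axis) of each of the 95 genes with enough counts, grouped on the x axis by complex and genome and sorted within each group. Lines are 95% confidence intervals and dashed lines mark 1.5-fold. All 95 intervals include 0, most lie inside the dashed lines, and the 3 longest belong to genes of under 1 CPM.

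The groups did not overlap for 4 of the 95 genes, all lower in Ripk1-hepKO and all nuclear: Ndufb4, Ndufc1, Sdha and Uqcrc2. The same held for 2.09% of all genes tested (319 genes) and for 71 of the 1775 abundant genes. In the other direction 0 of the 95 were apart, against 2.01% of all genes. The mitochondrial genome contributed 0 genes to either count.

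The 13 genes of mitochondrial DNA encode 7 subunits of complex I, cytochrome b of complex III, 3 subunits of complex IV and 2 of complex V. Of these 13, 9 lay below 0 and 4 above, with a median fold change on the log2 scale of -0.05, and 0 passed the test. Cytochrome c oxidase subunit 1, mt-Co1 (chromosome M, 5328 to 6872, plus strand, GRCm38), the most abundant of them, had 36958, 29196, 25739 and 29624 CPM in Ripk1-hepKO livers 28, 34, 37 and 39, and 29536, 24089, 26710 and 27701 CPM in Ripk1-Con livers 29, 32, 40 and 41. Mouse 28 was the highest of the 8 and mouse 32 the lowest, and the groups overlapped. The log2 fold change was 0.17 ± 0.15 (SE; edgeR adjusted p = 0.830).

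Mouse 28 stood apart most for mt-Nd1, a complex I subunit that helps form the quinone-binding site. It had 13165 CPM there, beside 7260, 7600 and 7403 CPM in Ripk1-hepKO livers 34, 37 and 39 and 8061, 8752, 8999 and 7806 CPM in Ripk1-Con livers 29, 32, 40 and 41. The other 3 Ripk1-hepKO livers were thus all below the 4 controls, while the group mean (8857 ± 2875 against 8404 ± 563 CPM; SD, n = 4 each) was higher in Ripk1-hepKO. The log2 fold change was 0.08 with all mice and -0.18 without mouse 28.

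The neighbouring gene mt-Nd2, another core membrane subunit of complex I, had 10643, 7771, 8289 and 8176 CPM in Ripk1-hepKO livers 28, 34, 37 and 39, against 9490, 11195, 9172 and 9412 CPM in Ripk1-Con livers 29, 32, 40 and 41. Here too mice 34, 37 and 39 were below every control and mouse 28 was not. Its log2 fold change was -0.17 ± 0.14 (SE; edgeR adjusted p = 0.821). Without mouse 28, mt-Nd1 and mt-Nd2 were 2 of 13 mitochondrial genes whose groups were apart and lower in Ripk1-hepKO, against 3.19% of all genes tested in that comparison. Mouse 28 was highest of the 8 for 8 of the 13, so leaving it out lowers the Ripk1-hepKO values of these in advance. A share over abundant genes alone was not taken for that comparison. Among the 82 nuclear genes 6 were apart and lower without mouse 28 (Ndufb4, Ndufc1, Sdha, Uqcrc2, Cox7a2 and Atp5g3) and 1 apart and higher (Ndufa8, against 3.3% of all genes).

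The lowest p among the mitochondrial genes belonged to mt-Nd4l, with 799, 781, 671 and 731 CPM in Ripk1-hepKO livers 28, 34, 37 and 39 and 859, 919, 767 and 949 CPM in Ripk1-Con livers 29, 32, 40 and 41. Its Ripk1-hepKO mean was 745 ± 57.1 CPM and its Ripk1-Con mean 873 ± 80.3 CPM (SD, n = 4 each), log2 fold change -0.23 ± 0.12 (SE; edgeR adjusted p = 0.768). Control mouse 40 lay inside the Ripk1-hepKO range. The shorter subunit gene mt-Nd3 had 438, 346, 379 and 364 CPM in the Ripk1-hepKO mice, against 522, 492, 360 and 396 CPM in the controls, log2 fold change -0.21 ± 0.15. The remaining complex I genes averaged 7122 ± 486 against 7660 ± 658 CPM for mt-Nd4, 5395 ± 1335 against 5675 ± 696 CPM for mt-Nd5 and 358 ± 97.3 against 349 ± 53.1 CPM for mt-Nd6, the single protein-coding gene on the light-strand transcript. None of these passed the test, and the groups overlapped in each.

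Cytochrome b, mt-Cytb, the electron-carrying core of complex III, had 11596, 10935, 10395 and 8932 CPM in Ripk1-hepKO livers 28, 34, 37 and 39, against 11936, 11779, 9354 and 10395 CPM in Ripk1-Con livers 29, 32, 40 and 41. The groups overlapped, and mouse 39 was the lowest of the 8. Of the copper-binding and structural subunits of complex IV, mt-Co2 averaged 5621 ± 669 against 5671 ± 375 CPM and mt-Co3 5510 ± 723 against 5367 ± 428 CPM (SD, n = 4 each). The ATP synthase genes averaged 7139 ± 681 against 7287 ± 606 CPM for mt-Atp6, which lines the proton channel, and 1827 ± 187 against 1934 ± 112 CPM for mt-Atp8.

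**Figure D2:**
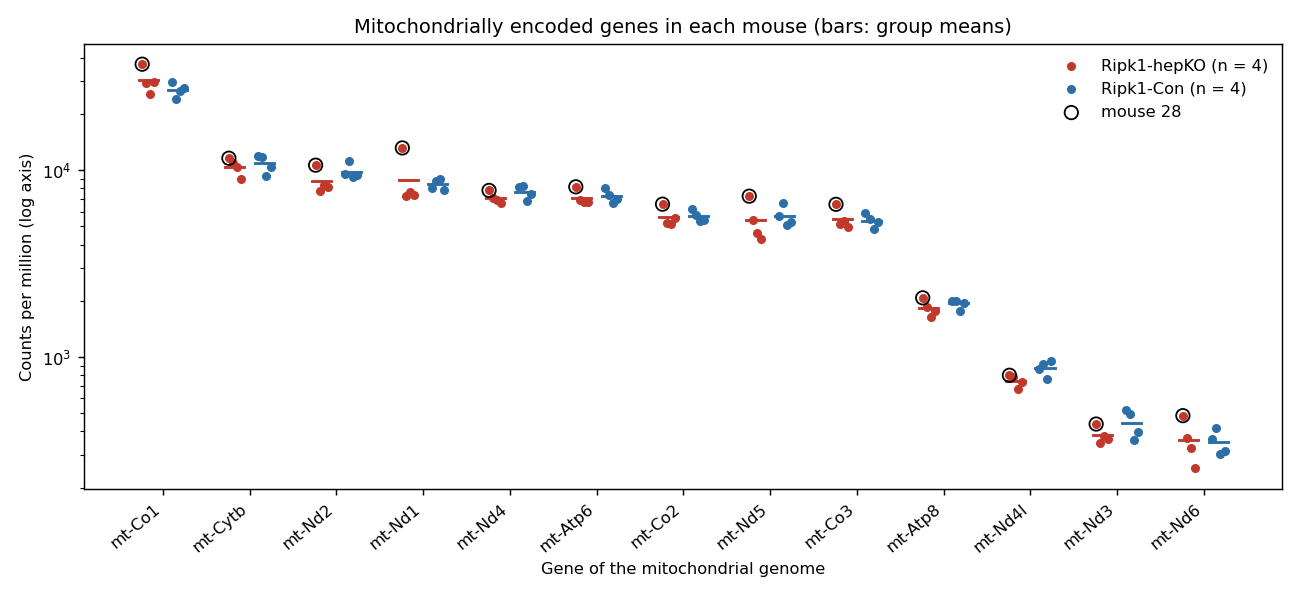
CPM (log y axis) of the 13 mitochondrially encoded genes (x axis, in order of mean level) in each of 4 Ripk1-hepKO (left, red) and 4 Ripk1-Con (right, blue) livers, with bars at group means. Circled points are mouse 28, at 13165 CPM for mt-Nd1 where the other 3 Ripk1-hepKO livers sit between 7260 and 7600 CPM.

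The levels of 7 mitochondrial genes and of some nuclear ones depend on how reads were assigned. Mouse chromosome 1 holds an inserted piece of mitochondrial DNA whose genes are annotated as pseudogenes on the minus strand, and the count table has rows for both places. Over 678 bases mt-Atp6 and Gm10925 were identical, as were mt-Co2 and Gm28661 (681 bases), mt-Co3 and Gm28437 (783 bases), mt-Nd4l and Gm10222 (294 bases), and the 876 bases of mt-Nd4 that Gm28439 covers. The sequences of mt-Nd3 and Gm28438 differed at 1 of 345 bases, T3C, counted from 1 at the first base of mt-Nd3. The start of both is shown because it holds that single difference, in capitals, each read 5′ to 3′ along its own strand of GRCm38, mt-Nd3 from chrM:9459-9491 (plus) and Gm28438 from chr1:24613087-24613119 (minus).
mt-Nd3: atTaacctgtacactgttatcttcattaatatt
Gm28438: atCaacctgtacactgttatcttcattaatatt

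The counts of these pairs moved together almost exactly. In each of the 8 libraries the row on chromosome 1 differed from mt-Nd3 in its count by -0.985% to -0.684%. For mt-Co2 the difference ran from -0.0453% to 0.000836%, for mt-Co3 from -0.0716% to -0.0109% and for mt-Nd4l from -0.136% to -0.0296%, while Gm10925 held 4.43% to 5.13% more counts than mt-Atp6. Whether reads that match both places were given to each row or shared between them is not given in the sources used here. The absolute levels of these 5 genes, of mt-Nd4 and of mt-Co1, which Gm29216 matches over 483 bases with 1 mismatch (A1066T, from the first base of mt-Co1), are uncertain for this reason. No such row was found for mt-Nd1, mt-Nd2, mt-Nd5, mt-Nd6, mt-Cytb or mt-Atp8. Only annotated rows were compared. The stretch of chromosome 1 between Gm28661 and Gm10925, the copies of mt-Co2 and mt-Atp6 that flank mt-Atp8, was not. The level of mt-Atp8 may thus be uncertain as well. With both rows of each pair summed, the median log2 fold change of the mitochondrial genes was -0.05, as before. Of the nuclear genes, 16 share sequence with another row that holds over 1% of their summed count, the Atp5o row at 0 counts among them. Of those described here, Atp5g2 has Gm10175 and Gm10231, with counts at 23.8% and 18.7% of its own, Cycs has Gm10053 at 16.7% and Gm10108 at 5.04%, Atp5g1 has Gm10039 at 11.7%, and Ndufab1, Uqcrb and Cox7a2l have rows at under 3%.

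**Figure D3:**
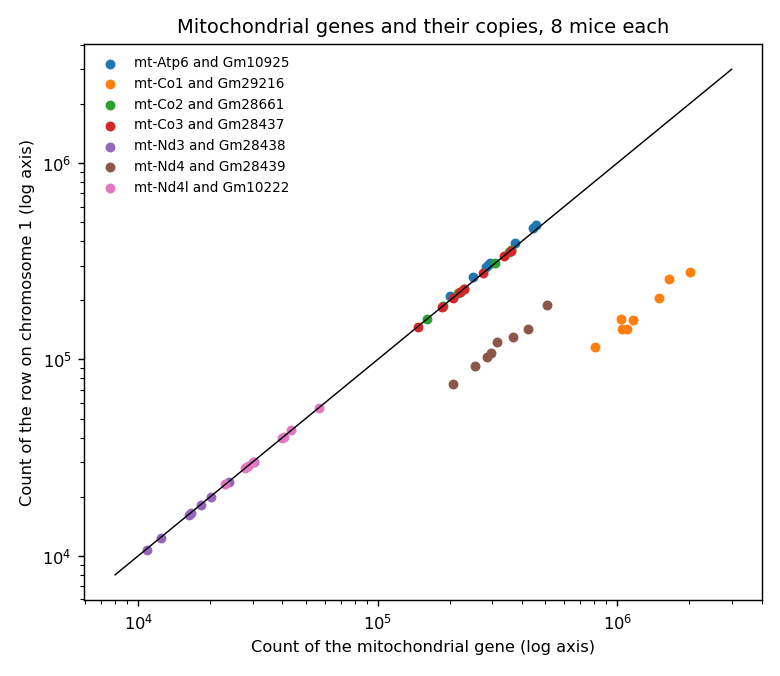
Deposited counts of 7 mitochondrial genes (x axis, log) and of their matching rows on chromosome 1 (y axis, log), one point per liver for 8 livers. The line marks equal counts. For mt-Atp6, mt-Co2, mt-Co3, mt-Nd3 and mt-Nd4l the points lie on or just off it, while the partial copies of mt-Nd4 and mt-Co1 lie below.

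A second ambiguity lies within the mitochondrial genome, where the coding sequences of mt-Atp8 and mt-Atp6 overlap on one transcript. The shared stretch of 43 bases (chrM:7927-7969, plus strand, GRCm38) is shown with the start codon of mt-Atp6 and the stop codon of mt-Atp8 in capitals.
mt-Atp8 and mt-Atp6: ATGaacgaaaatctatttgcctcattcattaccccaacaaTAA
A read over these bases belongs to both genes, and mt-Atp8 is 204 bases long in all, so its count depends on how such reads were assigned. The log2 fold changes were -0.08 ± 0.12 for mt-Atp8 and -0.03 ± 0.12 for mt-Atp6 (SE).

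Nuclear complex I genes were the largest group, with 38 genes, of which 33 lay below 0 and 5 above, and a median fold change on the log2 scale of -0.09. The lowest p of all 95 genes was that of Ndufab1, the mitochondrial acyl carrier protein, which serves both complex I and lipoic acid synthesis. It had 32.1, 36.4, 39.6 and 38.6 CPM in Ripk1-hepKO livers 28, 34, 37 and 39, against 45.5, 45.4, 39.4 and 41.3 CPM in Ripk1-Con livers 29, 32, 40 and 41. Only mouse 37 reached the range of the controls. The log2 fold change was -0.23 ± 0.10 (SE; edgeR adjusted p = 0.750), with a 95% interval of 0.728 to 1.002 times the control level.

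Ndufa6, an accessory subunit, had 33.3, 37.2, 36.4 and 40.1 CPM in Ripk1-hepKO mice, against 45.7, 40.4, 42.8 and 39.8 CPM in controls, log2 fold change -0.20 ± 0.10. Ndufc1, a small membrane subunit, was apart in the 2 groups, at 7.94, 8.17, 8.67 and 8.38 CPM in Ripk1-hepKO and 9.70, 9.36, 8.87 and 9.45 CPM in Ripk1-Con, and yet its log2 fold change of -0.17 ± 0.11 had an edgeR adjusted p of 0.779. Ndufb4 was apart as well, at 14.1, 11.8, 12.1 and 14.3 CPM against 14.4, 14.9, 14.7 and 14.8 CPM, with a gap between the groups far smaller than the spread within Ripk1-hepKO. Ndufb4c, a processed pseudogene with the same sequence as part of Ndufb4, differed from Ndufb4 in its count by -57.4% to -43.6% across libraries. The 2 rows share 18.3% of the 50-base words of Ndufb4, and how reads over it were assigned is not given in the sources used here.

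Among the core subunits of complex I, Ndufs1, which holds iron-sulfur clusters of the electron path, averaged 94.2 ± 12.4 CPM in Ripk1-hepKO and 105 ± 4.62 CPM in Ripk1-Con (SD, n = 4 each), with mouse 28 the lowest at 77.0 CPM. Ndufv1, which binds NADH, averaged 95.7 ± 5.84 and 98.7 ± 2.86 CPM. Among the 5 genes above 0 the smallest p values were those of Ndufc2 (28.6 ± 0.904 against 27.8 ± 0.592 CPM) and Ndufa2 (15.0 ± 1.51 against 14.5 ± 1.98 CPM), with log2 fold changes of 0.04 and 0.05. Ndufa4, which the symbol rule places with complex I although the protein is now known as a subunit of complex IV, averaged 102 ± 4.50 against 108 ± 9.15 CPM.

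Complex II, the succinate dehydrogenase shared with the tricarboxylic acid cycle, was split. Its flavoprotein gene Sdha (chromosome 13, 74322254 to 74350280, minus strand, GRCm38) had 328, 328, 356 and 368 CPM in Ripk1-hepKO livers 28, 34, 37 and 39, against 384, 406, 379 and 408 CPM in Ripk1-Con livers 29, 32, 40 and 41. Every Ripk1-hepKO liver lay below every control. The log2 fold change was -0.19 ± 0.10 (SE; edgeR adjusted p = 0.763; DESeq2 adjusted p = 0.506). The other 3 genes were not below 0: the iron-sulfur subunit Sdhb averaged 101 ± 4.51 against 96.6 ± 2.42 CPM, the membrane anchors Sdhc 114 ± 5.44 against 113 ± 5.64 CPM and Sdhd 121 ± 11.1 against 115 ± 6.72 CPM. Their log2 fold changes were 0.06, 0.00 and 0.08. The difference between Sdha and its partners was not tested.

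In complex III all 9 nuclear genes lay below 0, with a median of -0.08. The core protein gene Uqcrc2 had 163, 171, 173 and 172 CPM in Ripk1-hepKO mice, against 192, 186, 182 and 181 CPM in controls, which did not overlap, log2 fold change -0.13 ± 0.09 (SE; edgeR adjusted p = 0.790). Its partner Uqcrc1 averaged 160 ± 7.68 against 161 ± 3.16 CPM. Uqcrb, the ubiquinone-binding protein, averaged 71.7 ± 3.13 against 78.4 ± 6.37 CPM, and the Rieske iron-sulfur protein gene Uqcrfs1 averaged 101 ± 5.62 against 107 ± 5.95 CPM. Cytochrome c1, Cyc1, averaged 87.7 ± 6.74 against 93.2 ± 4.36 CPM. The mobile carrier cytochrome c, Cycs, which also triggers the apoptosome once released from mitochondria, had 96.9, 103, 102 and 99.96 CPM in Ripk1-hepKO mice and 101, 115, 115 and 105 CPM in controls, log2 fold change -0.12 ± 0.09 (edgeR adjusted p = 0.809).

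In complex IV 11 of 13 nuclear genes lay below 0, with a median of -0.07. The structural subunit Cox4i1 had 215, 193, 205 and 189 CPM in Ripk1-hepKO mice, against 221, 218, 201 and 208 CPM in controls, which overlapped. Cox6b1 averaged 99.7 ± 6.28 against 109 ± 9.74 CPM, Cox7a2 43.7 ± 2.18 against 46.8 ± 1.66 CPM and the matrix-side subunit Cox5a 51.9 ± 3.70 against 51.4 ± 2.01 CPM. Cox7a2l, a factor that joins complexes III and IV into supercomplexes, averaged 55.4 ± 5.79 against 54.2 ± 6.97 CPM.

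Complex IV also has tissue forms of single subunits, and the livers used the ubiquitous ones. Cox6a1 averaged 85.3 ± 3.21 against 88.7 ± 3.13 CPM, while its heart and muscle form Cox6a2 had 2 counts in all in the 4 Ripk1-hepKO libraries and 15 in the 4 controls. Cox8a averaged 41.8 ± 5.91 against 42.3 ± 3.05 CPM, while Cox8b had 2 counts in Ripk1-hepKO, against 0 in Ripk1-Con, and Cox8c had 0 in every library. Cox7b averaged 78.0 ± 2.15 against 81.8 ± 10.2 CPM, while Cox7b2 had 0 counts in every library. Cox4i2, the hypoxia-responsive partner of Cox4i1, had 7 counts in Ripk1-hepKO and 12 in Ripk1-Con. Cox7a1, the muscle partner of Cox7a2, had 0.293, 0.307, 0.350 and 0.343 CPM in Ripk1-hepKO mice, against 0.742, 0.614, 0.299 and 0.143 CPM in controls, log2 fold change -0.48 ± 0.49. Cox6b2, a testis form, averaged 0.269 ± 0.168 against 0.271 ± 0.206 CPM. The 6 rows that did not pass the filter were Cox4i2, Cox6a2, Cox7b2, Cox8b, Cox8c and a second row with the symbol Atp5o, which had 0 counts throughout.

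In complex V 14 of 17 nuclear genes lay below 0, with a median of -0.07. Atp5a1 and Atp5b, the genes of the alpha and beta subunits of the catalytic head, were the most abundant nuclear genes per kilobase. Atp5b had 800.1, 854, 903 and 829 CPM in Ripk1-hepKO mice, against 891, 959, 910 and 897 CPM in controls, and Atp5a1 had 665, 712, 725 and 703 CPM, against 750.1, 783, 709 and 764 CPM. The log2 fold changes were -0.11 ± 0.10 and -0.10 ± 0.10 (SE), and in both genes 1 or more Ripk1-hepKO livers reached the range of the controls. Atp5j, coupling factor 6 of the stalk, averaged 78.0 ± 4.004 against 87.2 ± 6.63 CPM. Atp5k, the membrane subunit e that takes part in the pairing of ATP synthases, had 18.0, 19.9, 15.4 and 26.8 CPM in Ripk1-hepKO mice, against 28.8, 23.9, 20.9 and 24.5 CPM in controls, log2 fold change -0.29 ± 0.18 with mouse 39 within the control range.

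The same mature c subunit of the ATP synthase ring is made from Atp5g1, Atp5g2 and Atp5g3. Atp5g1 averaged 96.2 ± 3.69 against 95.3 ± 6.59 CPM, Atp5g2 32.3 ± 0.347 against 32.2 ± 0.824 CPM and Atp5g3 139 ± 11.7 against 145 ± 11.2 CPM (SD, n = 4 each). Their log2 fold changes were 0.01, 0.00 and -0.06. Atp5e, the epsilon subunit of the stalk, averaged 31.3 ± 1.04 against 31.2 ± 3.30 CPM, and Atp5s, coupling factor B, 2.91 ± 0.523 against 3.35 ± 0.505 CPM.

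Levels were compared between genes per kilobase of annotated exon, as means over the 8 livers. The mitochondrial genes had a median of 8254 CPM per kb, from 681 for mt-Nd6 to 18572 for mt-Co1, and the 82 nuclear genes a median of 35.6 CPM per kb, from 0.244 for Cox6b2 to 232 for Atp5a1. The lowest mitochondrial gene thus stood above the highest nuclear one. The median of 8254 was the level of mt-Co2, whose row on chromosome 1 held nearly equal counts. Medians and ranks among the mitochondrial genes thus depend on how reads that match both places were assigned, which is unknown. The levels describe these libraries, which were made from captured polyadenylated RNA. How far that capture shaped the level of each mitochondrial transcript was not tested. After mt-Co1 came mt-Atp6 at 10591, mt-Cytb at 9323, mt-Atp8 at 9218, mt-Nd1 at 9018 and mt-Nd2 at 8929 CPM per kb, and the last 4 of these differed by less than the SD within either group. By complex, the nuclear medians were 25.7 CPM per kb for complex I, 66.8 for complex II, 67.8 for complex III, 48.0 for complex IV and 36.1 for complex V. The mitochondrial medians were 3035 for complex I, 8254 for complex IV and 9905 for complex V, beside the single value of mt-Cytb for complex III. The least abundant genes by complex were Ndufa4l2 at 0.650, Sdhc at 34.9, Uqcrc1 at 38.8, Cox6b2 at 0.244 and Atp5s at 1.53 CPM per kb. Ndufa4l2, like Ndufa4, is placed with complex I by the symbol rule alone. The most abundant of complex II was Sdhd at 95.9 CPM per kb. Some of these ranks depend on the length used. With the longest annotated transcript as length, Sdha at 127 CPM per kb stood above Sdhd, Cyc1 at 50.5 was the least abundant of complex III, and Atp5b at 459 stood above Atp5a1.

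**Figure D4:**
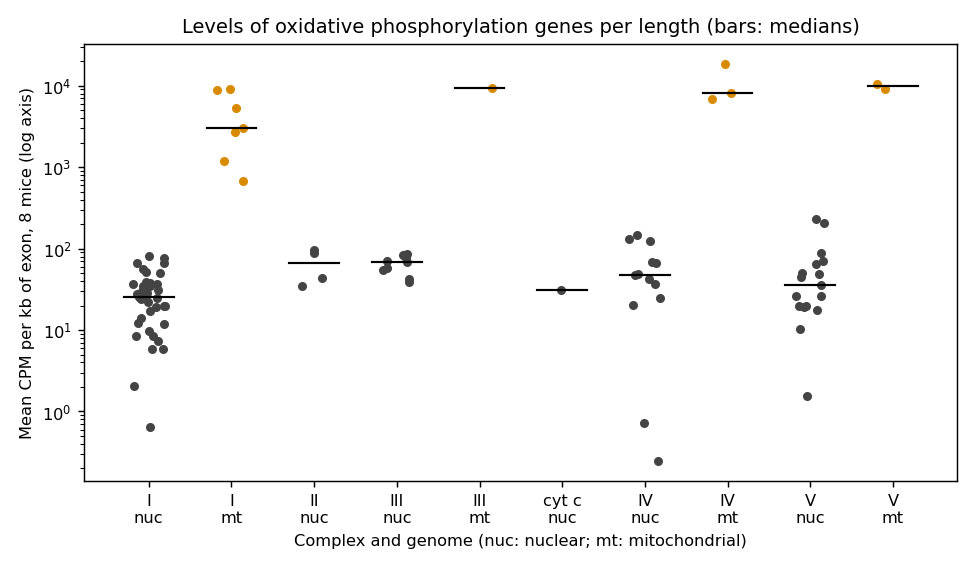
Mean CPM per kilobase of exon over 8 livers (log y axis) of each gene, by complex and genome (x axis), with bars at medians. The mitochondrial genes (orange) lie between 681 and 18572, the nuclear genes (grey) between 0.244 and 232.

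The 2 genomes were compared within each liver. Mitochondrially encoded genes took 10.3%, 8.79%, 8.61% and 9.50% of all counts in Ripk1-hepKO livers 28, 34, 37 and 39, and 9.41%, 8.55%, 9.26% and 8.90% in Ripk1-Con livers 29, 32, 40 and 41. The means were 9.30% ± 0.779 and 9.03% ± 0.382 (SD, n = 4 each), and the groups overlapped. These shares leave out the matching rows on chromosome 1, which are part of all counts. With those rows added, the means were 11.98% ± 0.943 in Ripk1-hepKO and 11.67% ± 0.541 in Ripk1-Con. The share thus depends on how reads that match both places were assigned. Nuclear genes took 0.627%, 0.674%, 0.728% and 0.780% in the Ripk1-hepKO mice, and 0.736%, 0.687%, 0.760% and 0.720% in the controls. Mouse 28 was highest of the 8 for the mitochondrial share and lowest for the nuclear share.

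The ratio of mitochondrial to nuclear counts, without the rows on chromosome 1, was therefore 16.5 in mouse 28. It was 13.04, 11.8 and 12.2 in Ripk1-hepKO livers 34, 37 and 39 and 12.8, 12.5, 12.2 and 12.3 in the controls. The 4 controls differed by under 1 in this ratio. The median log2 fold change of mitochondrial minus nuclear genes was 0.03 with all mice, and it was -0.06 when mouse 28 was left out, and -0.02 when mouse 34 or mouse 40 was. No direction between the genomes held across the mice left out.

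The small lean of the nuclear genes below 0 rested on several livers. On the log2 scale the median deviation from the mean of the 8 livers was -0.04, -0.09, -0.02 and -0.01 in Ripk1-hepKO livers 28, 34, 37 and 39, and 0.13, 0.05, -0.01 and 0.00 in Ripk1-Con livers 29, 32, 40 and 41. Control mouse 29 was highest of the 8 for 43 of 82 nuclear genes, and mice 28 and 34 were lowest for 24 each. The median log2 fold change of the nuclear genes was -0.05 without mouse 29. For the mitochondrial genes the deviations were 0.21, -0.05, -0.13 and -0.15 in Ripk1-hepKO and 0.10, 0.15, -0.10 and -0.04 in Ripk1-Con, and mouse 28 was highest of the 8 for 8 of 13 genes.

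**Figure D5:**
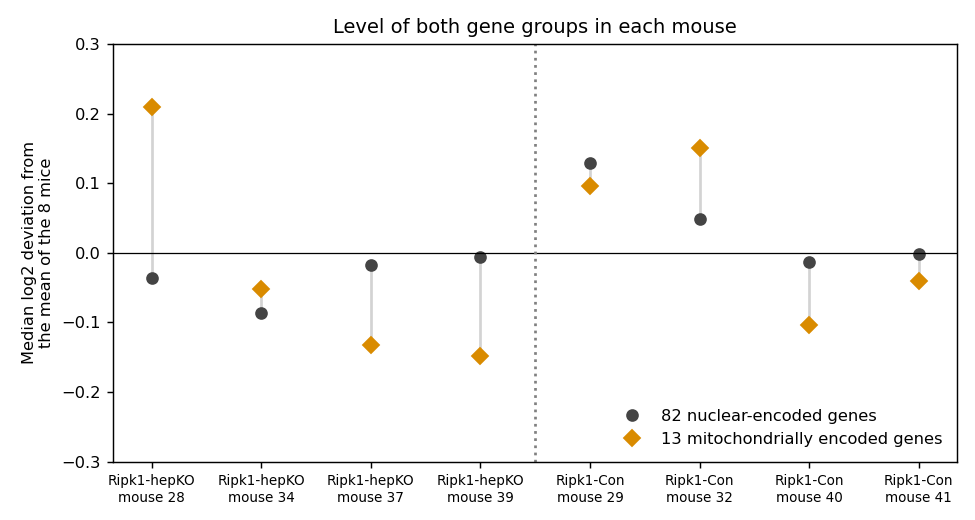
Median log2 deviation from the mean of the 8 livers (y axis) for 82 nuclear (grey circles) and 13 mitochondrial (orange diamonds) genes in each liver (x axis, Ripk1-hepKO left). The genomes part most in mouse 28, at 0.21 for the mitochondrial and -0.04 for the nuclear genes.

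Promoters of the nuclear genes were looked at for motifs of the nuclear respiratory factors. NRF-1 and the ETS factor GABP (also called NRF-2) are known to bind many of these promoters, and YY1 is known to bind some. Windows of 300 bases, 250 before and 50 after the start, were taken from RefSeq (GRCm38.p6), and 70 of 87 gene symbols had one, with 75 windows in all. The NRF-1 word (GCGCA, any base, then GCGC), on either strand, lay in 17 of the 70 genes, and in 24.0% of their windows against 4.603% of all 32851 windows. The ETS word CCGGAAG lay in 16 genes, and in 21.3% of windows against 8.86%. The YY1 word ATGGCGGC lay in 6 genes, and in 9.33% of windows against 2.24%. In several of these genes the YY1 word lay after the start, and whether its ATG is a start codon was not examined. The 32851 windows were not matched to those of these genes for base composition. The 3 words do not share letters by design, but where windows hold more than one they may overlap. A match describes letters, not binding.

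Sdha and Ndufb4 were the 2 genes with 3 NRF-1 words, the most of any, and Cox6a1 and Uqcrc1 had 2 each. The groups were apart for Sdha and Ndufb4, for Ndufb4 only narrowly (mouse 39 at 14.31 CPM against control mouse 29 at 14.38 CPM). They overlapped for Cox6a1, Uqcrc1 and all the rest of the 17 genes with an NRF-1 word. No gene among them passed the test between the genotypes, and a link between words and genotype was not tested. The windows of Sdha (chr13:74350191-74350490) and Ndufb4 (chr16:37654319-37654618), both on the minus strand, are shown with the words in capitals.
Sdha: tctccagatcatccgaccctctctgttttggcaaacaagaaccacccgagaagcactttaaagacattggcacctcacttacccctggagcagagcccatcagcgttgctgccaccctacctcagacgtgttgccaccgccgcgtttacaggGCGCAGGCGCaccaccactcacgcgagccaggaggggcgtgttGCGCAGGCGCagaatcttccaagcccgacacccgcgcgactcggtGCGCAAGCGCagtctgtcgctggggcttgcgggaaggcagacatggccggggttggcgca
Ndufb4: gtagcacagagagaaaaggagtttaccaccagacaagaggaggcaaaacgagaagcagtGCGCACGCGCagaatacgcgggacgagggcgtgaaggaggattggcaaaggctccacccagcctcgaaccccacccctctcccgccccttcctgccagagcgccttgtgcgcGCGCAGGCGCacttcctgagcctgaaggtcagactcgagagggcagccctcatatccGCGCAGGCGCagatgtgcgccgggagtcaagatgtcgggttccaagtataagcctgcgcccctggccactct
The window of Ndufc1, also apart, held none of the 3 words, and no window of Uqcrc2, the remaining gene that was apart, was used here.

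The lists of other mitochondrial genes around the complexes also held 0 genes past the threshold. Gabpa, which encodes the DNA-binding subunit of GABP, averaged 40.4 ± 3.34 CPM in Ripk1-hepKO and 48.2 ± 2.17 CPM in Ripk1-Con (SD, n = 4 each), with every Ripk1-hepKO liver below every control and log2 fold change -0.26 ± 0.09 (SE; edgeR adjusted p = 0.742). It was 1 of 14 regulators of mitochondrial biogenesis with an unadjusted p under 0.05, against 6.68% of all genes tested. The median of the list was 0.02, and Sirt1, a deacetylase, averaged 14.5 ± 2.16 against 17.6 ± 4.54 CPM.

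Factors of mitochondrial DNA and RNA had a median of -0.09, with 21 of 31 below 0. Fastk, which acts on the light-strand transcript mt-Nd6, averaged 37.5 ± 3.28 against 29.9 ± 1.92 CPM, and the groups were apart, log2 fold change 0.32 ± 0.10 (edgeR adjusted p = 0.742). Polg, the polymerase of mitochondrial DNA, averaged 34.4 ± 3.46 against 41.5 ± 2.40 CPM, apart in the other direction, log2 fold change -0.27 ± 0.10 (edgeR adjusted p = 0.742). Assembly factors had a median of -0.07, with 30 of 46 below 0. The complex IV assembly genes Cox14 and Coa7 averaged 7.63 ± 0.896 against 9.32 ± 0.921 CPM and 13.1 ± 2.62 against 16.1 ± 0.770 CPM.

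The smallest p in these lists was that of Etfdh, the electron transfer flavoprotein dehydrogenase of the inner membrane, which passes electrons from fatty acid oxidation to ubiquinone. It averaged 199 ± 9.05 against 262 ± 26.0 CPM, with every Ripk1-hepKO liver below every control and log2 fold change -0.39 ± 0.11 (SE; edgeR adjusted p = 0.742; 0.119 after adjustment by DESeq2). Etfa, a subunit of its electron donor, averaged 167 ± 5.02 against 198 ± 11.8 CPM and was apart as well, log2 fold change -0.24 ± 0.09. The redox list that holds them had a median of 0.05, with 12 of 20 above 0.

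Mitochondrial ribosome proteins had a median of -0.02, with 46 of 78 below 0. Mrpl41 averaged 10.02 ± 0.331 against 8.12 ± 0.928 CPM and Mrpl21 11.01 ± 0.714 against 13.03 ± 1.30 CPM. Import genes had a median of 0.00, with 12 of 24 below 0. Timm9, an intermembrane-space chaperone, averaged 12.8 ± 1.96 against 15.6 ± 0.905 CPM and the channel gene Tomm40 22.9 ± 4.36 against 19.3 ± 2.31 CPM. Enzymes of the tricarboxylic acid cycle had a median of -0.03, with 10 of 19 below 0. Sucla2, a subunit of succinyl-CoA synthetase, averaged 88.6 ± 1.91 against 99.0 ± 9.86 CPM, and the fumarase gene Fh1 265 ± 192 against 174 ± 48.6 CPM, whose log2 fold change of 0.61 was -0.02 without mouse 28.

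Proteases and chaperones had a median of -0.04, with 12 of 15 below 0. Clpx, the unfoldase of the matrix protease, averaged 96.4 ± 19.97 against 130 ± 15.8 CPM, and the intermembrane-space protease Htra2 9.42 ± 0.835 against 7.60 ± 1.12 CPM. Inner membrane carriers and uncoupling proteins had a median of 0.16, with 8 of 12 above 0. Of the 2 aspartate-glutamate carriers of the NADH shuttle, the liver form Slc25a13 averaged 97.4 ± 19.9 against 132 ± 17.9 CPM, log2 fold change -0.44 ± 0.16, and Slc25a12 21.1 ± 3.48 against 17.5 ± 1.23 CPM, log2 fold change 0.27 ± 0.13 (edgeR adjusted p = 0.742 and 0.762). None of these passed the test.

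Mean levels of markers of other liver cells were not equal in the 2 groups, and these differences were not tested. As means of log2(CPM + 1), the difference Ripk1-hepKO minus Ripk1-Con was 0.54 for 6 neutrophil markers, 0.47 for 6 monocyte and lipid-associated macrophage markers, 0.41 for 7 stellate cell markers, 0.34 for 7 Kupffer cell markers, 0.18 for 4 cholangiocyte markers and 0.07 for 6 endothelial markers. It was -0.14 for 10 hepatocyte markers, -0.37 for 5 erythroid markers, -0.04 for 4 B cell markers and 0.02 for 5 T and NK cell markers. In each of these lists the difference was smaller than the SD between mice within Ripk1-hepKO, Ripk1-Con or both. For the neutrophil markers these SDs were 0.64 and 0.70, and for the monocyte and lipid-associated macrophage markers 0.51 and 0.39. Adipose and skeletal muscle markers were near 0 in every liver, with summed levels of at most 0.0917 and 0.903 CPM in Ripk1-hepKO and 0.171 and 1.26 CPM in Ripk1-Con, and 2 of 5 markers in each list had no count. The neutrophil markers summed to 9.91 to 47.6 CPM in Ripk1-hepKO and 3.62 to 30.7 CPM in Ripk1-Con, and 0 of 6 were at 0 throughout. The part of these differences in the lean of the oxidative phosphorylation genes was not tested.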

How the data were processed

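Bulk liver RNA of 8 mice was measured. Per the labels' protocols, polyadenylated RNA was captured with oligo(dT) beads, dUTP marked the strand, and paired ends were read. The authors deposited 1 table of raw counts, whole numbers without normalization, by Ensembl gene. DESeq2 1.38.1, StringTie 2.2.1, STAR 2.5.2b and FastQC 0.11.5 appear in the submitters' processing notes beside the build GRCm38.p6, and the role of each is not stated there. The counting tool, its strand setting, the annotation release and the treatment of reads that match several places are not given in the sources used here.

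Symbols, biotypes, positions and exon lengths came from GENCODE M21 (GRCm38): 55154 of 55335 gene IDs matched and 181 did not. Tests used edgeR 4.0.16 (R 4.3.3) on these counts (filterByExpr by genotype, TMM, robust quasi-likelihood fit of genotype alone, Benjamini-Hochberg adjustment over 15234 genes, FDR 0.05). Standard errors of fold changes were derived from the F statistic of each gene. DESeq2 1.42.0 and limma 3.58.1 served as alternatives. Other choices varied were scaling, filter, genes in the fit, length, pseudocount, denominator and mice left out. Rows sharing sequence were found by 100 or more shared words of 50 bases. As no molecular identifiers are given, depth sets the precision of counting reads, not molecules.

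The genes and lists were chosen with earlier results of these data known. Named are all mitochondrial genes, a set of core subunits and tissue forms, per complex the 2 nuclear genes of smallest p in each direction and the most and least abundant per kilobase, 2 genes of smallest p per further list, and Nnt. Ndufb4, Ndufc1, Ndufa8 and Cox6c appear outside this rule, and were chosen after their values were seen. Sums and medians over genes were not tested.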

Additional observations from a re-analysis of the deposited data

Results flagged for a closer look

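In groups of 4 mice, the highest or lowest value was set against the others by the size of its gap. Of 144 such groups, 6 stood out, where chance gives about 1 in 20. Mouse 28 was the high sample of Ripk1-hepKO for mt-Nd1, at 13165 CPM beside 7260 to 7600 CPM in the other 3, and for mt-Atp6, at 8150 CPM beside 6720 to 6940 CPM. It was the low sample of Ripk1-hepKO for Mrpl21, at 9.94 CPM beside 11.3 to 11.4 CPM. Mouse 37 was the high sample of Ripk1-hepKO for Etfdh, at 213 CPM beside 194 to 195 CPM. In Ripk1-Con, mouse 32 was high for mt-Nd2, at 11195 CPM beside 9172 to 9490 CPM in the other 3. The same mouse was high for the row of Nnt with the ID ENSMUSG00000116207, at 63.4 CPM beside 17.4 to 24.5 CPM.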

How the results depend on the processing

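No paired analysis was possible because each mouse has a number of its own and none occurs in both genotypes. The main limits are 4 mice a group, 1 library that stood apart, unknown read assignment for genes with copies, and CPM levels that describe poly(A)-captured RNA. Depth limits chiefly the tissue forms under 1 CPM. No oxidative phosphorylation gene passed an FDR of 0.05 under any alternative run, where the lowest adjusted p of a named one was 0.470. At an unadjusted p under 0.05 the count was 1 with protein-coding genes only (Ndufab1), 2 with DESeq2 (Sdha and Ndufab1), 3 with voom quality weights (Sdha, mt-Nd2 and mt-Nd4l), 3 without mice 28 and 40 together (Cox6c, mt-Nd3 and mt-Nd4l), and 0 to 2 with single mice left out, with the highest count without mouse 40. Without mice 28 and 40 the median log2 fold change was -0.30 for mitochondrial complex I genes, against -0.11, and -0.03 for complex II, against 0.03. For mitochondrial genes mouse 28 had the highest median deviation of Ripk1-hepKO (0.21) and mouse 40 the lowest of Ripk1-Con (-0.10). The direction of that move is thus not independent of the choice of mice. With the longest transcript as length, the median of the nuclear genes was 50.1 CPM per kb, against 35.6. The median of the nuclear genes ran from -0.09 to -0.05 with single mice left out, and that of the mitochondrial genes from -0.15 to 0.00. The number of the 95 genes that lay below 0 ran from 67 to 87 over the alternatives, which were applied to it after the data were seen. The cause of these moves was not tested.

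Of 50 named oxidative phosphorylation genes, 21 turned sign in 76 of 954 alternative values, none of them called. With library size alone the log2 fold change was 0.0204 for Uqcrc1, 0.0169 for mt-Co2, 0.0155 for Cox6b2 and 0.0112 for Cox8a. Without a filter the log2 fold change was 0.00146 for mt-Co2. With protein-coding genes only the log2 fold change was -0.00315 for Sdhc, -0.00328 for Atp5e and -0.0071 for Atp5g2. With limma voom the log2 fold change was 0.71 for Cox6b2. With voom quality weights the log2 fold change was -0.10 for mt-Nd1, -0.0865 for mt-Nd6, -0.0203 for Ndufa2, -0.0248 for Sdhc, -0.0524 for mt-Co3, -0.0299 for Cox5a, 1.22 for Cox6b2, 0.00186 for Cox7a1, -0.0175 for Atp5e, -0.00554 for Atp5g1 and -0.027 for the Nnt row ENSMUSG00000025453. Without mice 28 and 40 the log2 fold change was -0.145 for mt-Nd1, -0.21 for mt-Nd6, -0.0893 for Ndufa2, 0.00843 for Ndufv1, -0.0571 for Sdhc, 0.00217 for Uqcrc1, -0.10 for mt-Co3, -0.0286 for Cox5a, -0.045 for Atp5e, -0.0422 for Atp5g1 and -0.15 for Fh1. With single mice left out it ran from -0.18 to 0.17 for mt-Nd1, -0.15 to 0.17 for mt-Nd6, -0.0185 to 0.14 for Ndufa2, -0.026 to 0.0321 for Sdhc, -0.0355 to 0.0148 for Uqcrc1, -0.0571 to 0.0891 for mt-Co3, -0.0239 to 0.0574 for Cox5a, -0.0316 to 0.0791 for Atp5e, -0.0155 to 0.0551 for Atp5g1, -0.0134 to 0.0209 for Atp5g2 and -0.0217 to 0.87 for Fh1. It also ran from -0.24 to 0.21 for the Nnt row ENSMUSG00000025453, -0.335 to 0.12 for Ndufa4l2, -0.0967 to 0.0335 for mt-Co2, -0.54 to 0.53 for Cox6b2, -0.115 to 0.0425 for Cox8a, -0.022 to 0.13 for Cox7a2l, -0.099 to 0.0238 for mt-Atp6, -0.25 to 0.0278 for mt-Nd5, -0.11 to 0.0187 for mt-Cytb, -0.12 to 0.0106 for Cox7b and -0.75 to 0.0469 for the Nnt row ENSMUSG00000116207.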

Other observations

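Nnt, the proton-pumping transhydrogenase that makes NADPH in the matrix, has 2 rows whose annotated exons overlap on the same strand. The row ENSMUSG00000116207 had 19.4, 14.8, 25.1 and 26.3 CPM in Ripk1-hepKO livers 28, 34, 37 and 39, and 24.5, 63.4, 17.4 and 20.3 CPM in Ripk1-Con livers 29, 32, 40 and 41. The row ENSMUSG00000025453 had 39.4, 32.1, 36.5 and 25.6 CPM in the Ripk1-hepKO mice, and 42.7, 10.6, 36.7 and 39.2 CPM in the controls. Control mouse 32 was thus highest in one row and lowest in the other, and the sum of both rows was 54.8 ± 6.63 CPM in Ripk1-hepKO and 63.7 ± 8.72 CPM in Ripk1-Con (SD, n = 4 each). How reads over the exons that the 2 rows share were assigned is not given in the sources used here.

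Mouse 28, high for most mitochondrial messenger RNAs, was not high for the mitochondrial ribosomal RNAs. The large one, mt-Rnr2, had 653, 929.9, 1073 and 906 CPM in Ripk1-hepKO livers 28, 34, 37 and 39, and 1211, 1601, 737 and 1072 CPM in Ripk1-Con livers 29, 32, 40 and 41. The leucine tRNA gene mt-Tl1, which lies directly before mt-Nd1, had 42.9 CPM in mouse 28, beside 21.6 to 23.6 CPM in the other Ripk1-hepKO mice and 25.9 to 38.1 CPM in the controls.

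Several tRNA rows of the mitochondrial light strand read 0 in single libraries. In Ripk1-hepKO mouse 39, mt-Ts1 had 0 counts, beside 7832, 3742 and 4195 in mice 28, 34 and 37 and 4542, 5606, 3056 and 4174 in Ripk1-Con livers 29, 32, 40 and 41. In the same library mt-Tq, mt-Ta, mt-Tn, mt-Tc and mt-Ty also had 0 counts, and in control mouse 41 mt-Tq, mt-Ta and mt-Tn did.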
